A study of Mus musculus with 15 samples.

Results

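The transcripts described here are those of 6 genes that red blood cells and their precursors use for making and carrying haemoglobin, read in mouse liver. They are the alpha globins Hba-a1 and Hba-a2, the beta globins Hbb-bs and Hbb-bt, the haem synthesis enzyme Alas2 and the anion exchanger Slc4a1. They were chosen by symbol, with the estimated counts of these 15 libraries and their fold changes between diets already known, and are 6 of 25731 genes with a matched transcript. All 6 were found and all 6 passed the filter on low counts, Slc4a1 only through the high-fat and chow libraries. RNA sequencing of total liver RNA was performed on 15 libraries from mice of the C57BL/6 genotype, an inbred strain. Of these, 5 came from mice on a ketogenic diet (KD), which is very low in carbohydrate, for 3 days at 12 weeks of age, 5 from mice on a high-fat diet (HFD) for the same time and at the same age, and 5 from mice on chow (CD). The sources used here do not give the sex of the mice, the age of the chow mice, how the livers were drained of blood, or any batch. Each library was taken as 1 mouse, and the p values measure only the spread between these libraries.

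Haemoglobin is built from paired alpha and beta chains, each holding a haem group. The precursors of red cells make the chains in large amounts in the bone marrow and spleen of adult mice, and reticulocytes, the young red cells in the circulation, still carry their mRNA. Alas2 is the erythroid form of the enzyme that starts haem synthesis, and hepatocytes use the separate gene Alas1 for the same step. Slc4a1, or band 3, carries chloride and bicarbonate across the red cell membrane and anchors it to the cytoskeleton. Adult liver no longer forms red cells in quantity but is rich in blood, and its macrophages take up old red cells.

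Summed estimated read counts were 34707597 to 50914494 in the KD libraries, 30121672 to 44764257 in the HFD libraries and 30190806 to 43688344 in the CD libraries. The 7 hepatocyte markers matched summed to 86400 to 95300 CPM (read counts scaled to a common library size) in KD, 70400 to 82300 in HFD and 76000 to 91100 in CD, so the libraries carried the RNA of the labelled tissue. The 4 globin genes together took 0.0298 to 0.0471% of the reads in KD, 0.0279 to 0.103% in HFD and 0.0635 to 0.0960% in CD. The scaling used TMM factors, and the tests are edgeR quasi-likelihood F tests with Benjamini-Hochberg adjustment over 13967 genes at a threshold of 0.05. HFD replicate 11 stands apart from the other 4 HFD libraries in its globin reads, and the levels, fold changes, ratios and correlations of the 6 genes that rest on it are also given without it.

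In livers of KD-fed mice all 6 transcripts were lower than in livers of CD-fed mice, and no KD library overlapped a CD library for any of them. The globins were read at 0.395 (Hba-a2) to 0.478 (Hbb-bs) of the chow level, Alas2 at 0.607 of it and Slc4a1 at 0.257 of it. After HFD the 4 globins lay between the other diets on average, while Alas2 and Slc4a1 lay near the chow level. These differences chose the genes and are given as a description. Nothing is read from the calls given for them below.

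Hba-a1 lies on chromosome 11, bases 32283511 to 32284465 of GRCm38, plus strand, and Hba-a2 on the same strand at 32296489 to 32297298. Their coding sequences of 426 bases differ at 1 base, C381T, counted from the A of the start codon in Hba-a1 and then in Hba-a2. The stretches around that base are shown because they carry the whole coding difference between the copies, with the differing base in capitals (chr11:32284313-32284373 and chr11:32297130-32297190, GRCm38, plus strand).
Hba-a1: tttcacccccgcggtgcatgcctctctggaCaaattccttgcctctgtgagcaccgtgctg
Hba-a2: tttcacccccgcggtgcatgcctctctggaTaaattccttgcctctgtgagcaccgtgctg
Of the 31-base windows in the main transcripts, 71.3% of those of Hba-a1 and 91.0% of those of Hba-a2 also occur in the other copy. The split of reads between the copies is therefore uncertain, and their sum is the firmer value.

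Hba-a1 stood at 106, 143.5, 87.6, 102 and 142 CPM in the KD libraries, 147, 104, 338, 131 and 161 in the HFD libraries and 211.5, 196, 285, 313 and 301 in the CD libraries. All KD libraries lie below all CD libraries, and 1 HFD library, replicate 11, lies above every CD library. The log2 fold change of Hba-a1 was -1.17 ± 0.29 (SE) for KD against CD, -0.57 ± 0.29 for HFD against CD and -0.60 ± 0.29 for KD against HFD. Hba-a2 stood at 70.0, 101.5, 69.3, 76.9 and 109.9 CPM in KD, 123, 69.9, 241, 108 and 130.0 in HFD and 205, 169.8, 226, 255 and 226 in CD. It shows the same order of diets and the same high HFD library. Its log2 fold change was -1.34 ± 0.27 for KD against CD, -0.69 ± 0.27 for HFD against CD and -0.65 ± 0.27 for KD against HFD. Summed over both copies, alpha globin differed by -1.24 ± 0.28, -0.62 ± 0.28 and -0.62 ± 0.28 in the same 3 comparisons. Without HFD replicate 11 the sum differed by -0.97 ± 0.18 for HFD against CD and by -0.27 ± 0.18 for KD against HFD.

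Hbb-bs lies on chromosome 7, bases 103826534 to 103828096, minus strand, and Hbb-bt beside it at 103812524 to 103813996. Their coding sequences of 441 bases also differ at 1 base, C417T from Hbb-bs to Hbb-bt, shown in capitals for the same reason (chr7:103826668-103826722 and chr7:103812659-103812713, GRCm38, minus strand).
Hbb-bs: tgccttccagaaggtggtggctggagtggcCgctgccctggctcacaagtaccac
Hbb-bt: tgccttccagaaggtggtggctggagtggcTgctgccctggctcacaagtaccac
Here 66.9% of the windows of Hbb-bs and 59.4% of those of Hbb-bt are shared, so the split of reads is again uncertain. Hbb-bs stood at 109, 149, 91.4, 105 and 156 CPM in KD, 165, 94.6, 334, 131 and 148 in HFD and 227, 200.1, 278, 267 and 307 in CD. Its log2 fold change was -1.07 ± 0.29 for KD against CD, -0.55 ± 0.29 for HFD against CD and -0.52 ± 0.29 for KD against HFD. The beta globins thus show the pattern of the alpha globins, with HFD replicate 11 again above every CD library for Hbb-bs. Hbb-bt stood at 41.6, 56.55, 33.3, 42.0 and 61.5 CPM in KD, 61.8, 36.04, 144, 49.3 and 59.6 in HFD and 97.4, 73.4, 115.5, 117 and 144 in CD. Its log2 fold change was -1.22 ± 0.34, -0.64 ± 0.34 and -0.58 ± 0.34 in the same order of comparisons. Both copies together differed by -1.11 ± 0.30, -0.58 ± 0.30 and -0.53 ± 0.30. Without HFD replicate 11 they differed by -0.97 ± 0.20 for HFD against CD and by -0.14 ± 0.20 for KD against HFD.

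Alas2, on the X chromosome at 150547375 to 150570638, plus strand, stood at 47.4, 52.3, 56.55, 76.7 and 85.3 CPM in KD, 105, 94.7, 109.7, 100.3 and 74.0 in HFD and 112, 95.9, 101, 116 and 98.7 in CD. The KD libraries lie below all CD libraries, and the HFD libraries overlap the CD libraries, with 1 of them inside the KD range. The log2 fold change was -0.72 ± 0.15 for KD against CD, -0.12 ± 0.15 for HFD against CD and -0.60 ± 0.15 for KD against HFD. In TPM, a relative abundance of transcripts that divides by the effective length estimated for each library, Alas2 was 35.98 to 56.57 in KD and 48.1 to 72.3 in CD, so on that scale the diets overlap. With effective lengths as offsets in the fit its log2 fold change for KD against CD was -0.72, as without them.

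Slc4a1, on chromosome 11 at 102348824 to 102366203, minus strand, was read 2, 3, 6, 2 and 5 times in the KD libraries, 11, 11, 21, 9 and 7 times in the HFD libraries and 8, 9, 14, 16 and 13 times in the CD libraries. In all, 137 reads support it, and counting error alone is large at this depth. Every KD library holds fewer reads than every HFD and every CD library. Its log2 fold change was -1.96 ± 0.40 for KD against CD, -0.07 ± 0.33 for HFD against CD and -1.89 ± 0.40 for KD against HFD. The HFD value turned positive without HFD replicate 14, CD replicate 18 or CD replicate 19, where it was 0.05, 0.06 and 0.02.

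**Figure D1:**
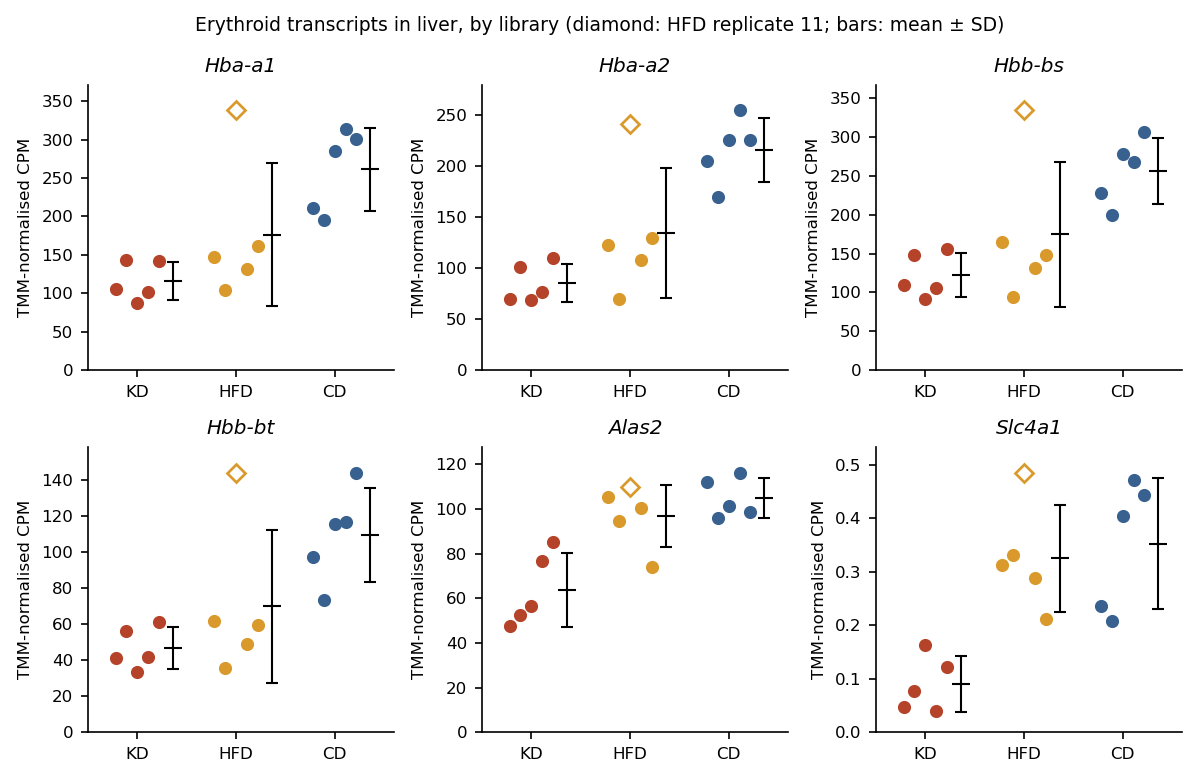
Normalised CPM of the 6 genes in each library, 5 libraries per diet, with the mean and SD at the right of each diet and HFD replicate 11 as an open diamond. KD points lie below CD points in every panel, and the diamond at 338 CPM for Hba-a1 stands above all other HFD points.

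By the test across all genes, all 6 genes were called lower in KD against CD, beside 30.8% of the 13967 genes called in either direction and 14.6% called lower. All 6 had KD libraries wholly below the CD libraries, beside 10.1% of the genes tested. In HFD against CD, edgeR called 0 of the 6, beside 15.6% called in either direction and 7.32% called lower; 1 of the 6 had an unadjusted p under 0.05 and DESeq2 called 0. Without HFD replicate 11, 4 of the 6 were called lower. None had HFD libraries wholly below the CD libraries, beside 4.81% of the genes tested. In KD against HFD, 2 of the 6 were called lower, Alas2 and Slc4a1, beside 26.1% called in either direction and 13% called lower, and Hba-a2 was also called without HFD replicate 10. Only Slc4a1 had KD libraries wholly below the HFD libraries, beside 7.73% of the genes tested. The median log2 fold change of the 6 was -1.20, -0.56 and -0.60 in these comparisons, beside -0.01, 0.01 and -0.02 over all genes tested. Without HFD replicate 11 it was -0.94 for HFD against CD and -0.28 for KD against HFD, beside 0.01 and -0.01 over all genes tested. Nothing is read from these counts, shares and medians, with or without that library, since the genes were chosen with all 3 comparisons known. In bulk RNA, fewer red cells and less RNA per cell cannot be told apart.

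The globin values of the HFD group rest in large part on HFD replicate 11. Its 4 globins summed to 1057 CPM, against 304.6 to 498.8 CPM in the other 4 HFD libraries, a 2.46-fold difference from their mean. The excess was 2.49-fold for Hba-a1, 2.24-fold for Hba-a2, 2.48-fold for Hbb-bs and 2.78-fold for Hbb-bt. It was 1.70-fold for Slc4a1 and 1.17-fold for Alas2, so in that library the globins stood apart more than the other red cell genes did. Without it, the log2 fold changes of HFD against CD were -0.94 for Hba-a1, -1.01 for Hba-a2, -0.93 for Hbb-bs and -1.08 for Hbb-bt. The other 4 HFD libraries lie below every CD library for all 4 globins, beside 5.5% of the genes tested. Alas2 stood at -0.16 and Slc4a1 at -0.28 in that comparison. For KD against HFD the globin values without this library were -0.22 for Hba-a1, -0.33 for Hba-a2 and -0.14 for both beta globins, beside -0.55 for Alas2 and -1.68 for Slc4a1. These values describe genes chosen with the fold changes known, after 1 library was set aside for its globin level, and support no claim about the diets.

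**Figure D2:**
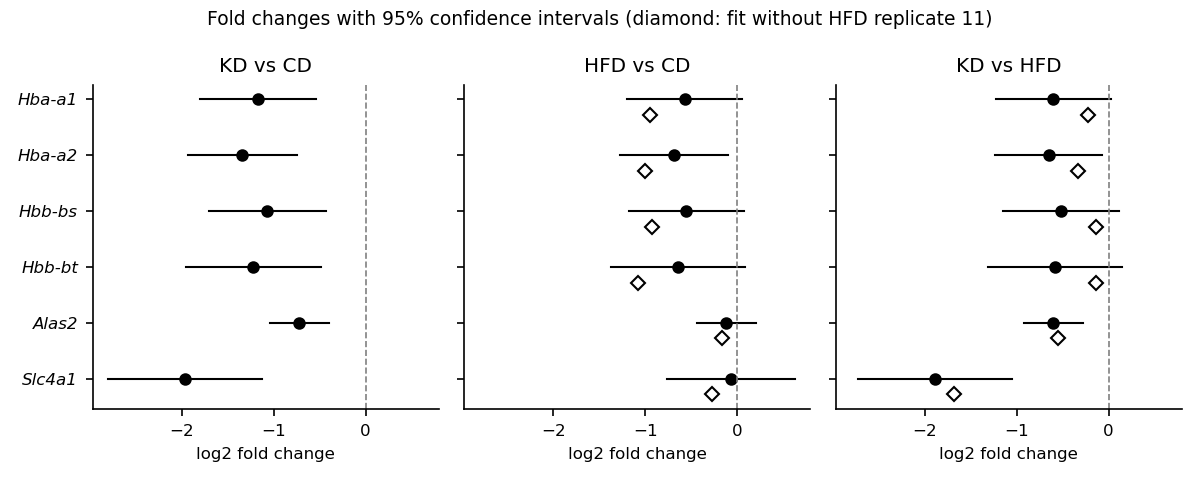
Log2 fold changes of the 6 genes in 3 comparisons, with 95% confidence intervals from the fit of all 15 libraries, and open diamonds for the fit without HFD replicate 11. Leaving that library out moves the globins from -0.57 to -0.94 (Hba-a1, HFD against CD) and from -0.60 to -0.22 (KD against HFD), and Alas2 little.

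Levels of different genes can be compared per length, in TPM. Hbb-bs was highest at 346 ± 74.7 TPM in KD, 396 ± 204 in HFD and 569 ± 80.6 in CD (SD, n = 5 each), and it was the highest of the 6 in 13 of 15 libraries. Hba-a1 followed with 273 ± 53.9 TPM in KD, 339 ± 171 in HFD and 508 ± 104 in CD. Hba-a2 had 254 ± 47.3 TPM in KD, 332 ± 155 in HFD and 538 ± 85.7 in CD. These 2 copies do not differ beyond their spread, and Hba-a1 was above Hba-a2 in 7 of 15 libraries. Hbb-bt came next with 115 ± 26.0 TPM in KD, 138 ± 79.8 in HFD and 215 ± 42.3 in CD, and was the lowest globin in all 15 libraries. Alas2 had 44.6 ± 8.55 TPM in KD, 54.1 ± 8.50 in HFD and 60.4 ± 8.56 in CD, below every globin in all 15 libraries. Slc4a1 was lowest throughout, at 0.0842 ± 0.0907 TPM in KD, 0.113 ± 0.0625 in HFD and 0.137 ± 0.0696 in CD, values that include short non-coding transcripts of the gene. Without replicate 11 the HFD means were 313 ± 97.4 TPM for Hbb-bs, 271 ± 88.5 for Hba-a1, 275 ± 104 for Hba-a2, 105 ± 34.8 for Hbb-bt, 52.9 ± 9.33 for Alas2 and 0.116 ± 0.0717 for Slc4a1 (SD, n = 4).

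The make-up of the signal was compared between the diets by ratios within a library, which library size does not touch. Beta globin reads per alpha globin read were 0.835 ± 0.028 in KD, 0.777 ± 0.054 in HFD and 0.766 ± 0.064 in CD (SD, n = 5 each). The single KD libraries run from 0.795 to 0.865 and the CD libraries from 0.677 to 0.856, so the diets overlap. Hba-a2 made up 42.4 ± 1.8% of alpha globin reads in KD, 43.5 ± 2.4% in HFD and 45.5 ± 2.5% in CD. Hbb-bt made up 27.7 ± 0.70% of beta globin reads in KD, 28.2 ± 1.2% in HFD and 29.7 ± 1.9% in CD. Both shares overlap between diets, and the split between copies is uncertain as above. Alas2 stood at 4.64 ± 1.17 TPM per 100 TPM of globin in KD, 5.26 ± 2.06 in HFD and 3.34 ± 0.55 in CD. It was 2.71 in HFD replicate 11 and 3.91 to 8.04 in the other HFD libraries, of which only replicate 14 lay within the CD range of 2.62 to 3.93. Slc4a1 had 2.56 ± 1.90 reads per 10000 globin reads in KD, 6.57 ± 2.64 in HFD and 4.08 ± 0.81 in CD. Without replicate 11 the HFD values were 0.765 ± 0.054 beta reads per alpha read, 43.9 ± 2.5% for Hba-a2, 27.7 ± 0.67% for Hbb-bt, 5.90 ± 1.72 TPM of Alas2 per 100 of globin and 7.07 ± 2.76 Slc4a1 reads per 10000 globin reads (SD, n = 4).

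Alas2 reads were split between 2 coding transcripts of 11 exons each, whose coding sequences of 1761 and 1716 bases differ by 45 bases. They share 1835 of 2007 and 1862 31-base windows, so few reads tell them apart. The short transcript took 36.8, 26.8, 37.0, 23.0 and 37.6% of Alas2 coding reads in KD, 38.5, 32.5, 29.7, 24.1 and 39.1% in HFD and 37.9, 39.5, 37.5, 35.99 and 41.0% in CD. The CD libraries lie close together and the KD and HFD libraries spread below and into their range. The means were 32.2 ± 6.8% in KD, 32.8 ± 6.3% in HFD and 38.3 ± 1.9% in CD. By a two-sided exact permutation test, the difference was -6.13 points for KD against CD (p = 0.0873, adjusted over 3 comparisons 0.167), -5.57 points for HFD against CD (p = 0.111, adjusted 0.167) and -0.56 points for KD against HFD (p = 0.889, adjusted 0.889). None passed the threshold, and the smallest p this design allows is 0.00794.

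**Figure D3:**
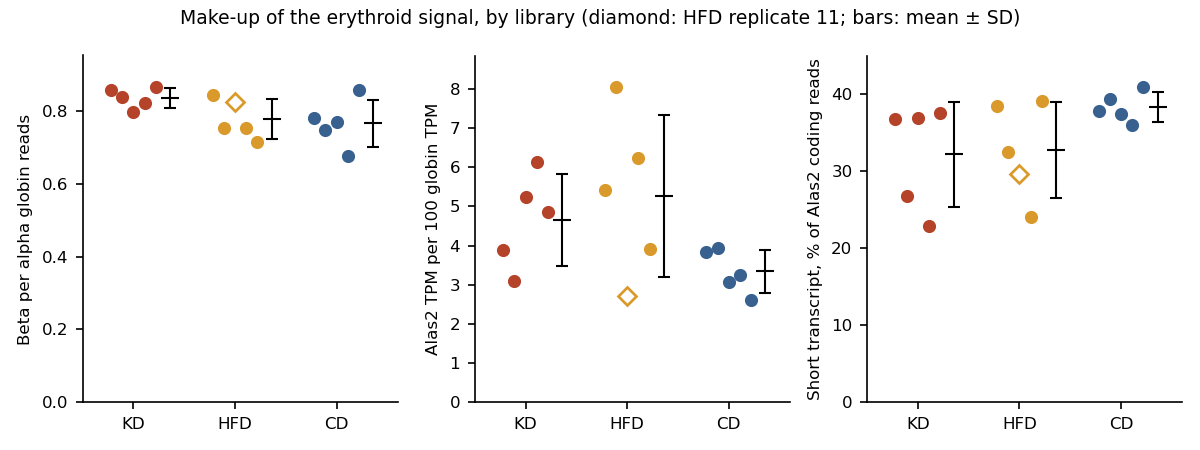
Beta globin reads per alpha globin read, Alas2 TPM per 100 globin TPM, and the short transcript's percent of Alas2 coding reads, by library with mean and SD (n = 5 per diet). The diets overlap in all 3 panels, and the CD libraries spread least in the last (35.99 to 41.0%).

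Across the 15 libraries the globins moved together. Pearson's r between the log2 CPM of any 2 globins was 0.97 to 1.0, and 0.95 to 0.99 once the diet means were taken off. Near-identical sequence, with reads shared between copies, contributes to the values within the alpha and within the beta pair. Alas2 followed the globins less closely, with r of 0.64 to 0.71 over all libraries and 0.24 to 0.33 within diets. Slc4a1 had r of 0.66 to 0.71 with the globins over all libraries and 0.41 to 0.46 within diets. Without HFD replicate 11 the within-diet values were 0.90 to 0.98 among globins, 0.08 to 0.23 for Alas2 and 0.20 to 0.28 for Slc4a1. All are descriptions over libraries that share diet and depth, and Slc4a1 rests on few reads.

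The regions upstream of the globin and Alas2 start sites are shown because the globins moved together across the libraries, with Alas2 set beside them as the haem synthesis gene of the same cells, though it followed them only weakly within diets. They are the 250 bases before the start site in RefSeq (GRCm38.p6), with matches in capitals to 4 kinds of letters, each searched on both strands. One is CACCC, which the erythroid factor KLF1 binds. Another is CCAAT, and the third is TATAA, both common close to start sites. The last is a GATA set, for the erythroid factor GATA1, made of the letters AGATAA, of AGATAG in its second form, of TGATAA in the form with a first T, and of the remaining form TGATAG. The Hba-a2 window equals that of Hba-a1 over 297 aligned bases and is not repeated. They lie at chr11:32283422-32283671 (plus), chr7:103827929-103828178 (minus), chr7:103813924-103814173 (minus) and chrX:150547167-150547416 (plus).
Hba-a1: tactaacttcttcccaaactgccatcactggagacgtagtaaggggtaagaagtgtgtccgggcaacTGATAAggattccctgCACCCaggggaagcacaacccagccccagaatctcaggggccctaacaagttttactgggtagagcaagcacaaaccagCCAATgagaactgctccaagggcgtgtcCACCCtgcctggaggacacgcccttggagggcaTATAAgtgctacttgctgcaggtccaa
Hbb-bs: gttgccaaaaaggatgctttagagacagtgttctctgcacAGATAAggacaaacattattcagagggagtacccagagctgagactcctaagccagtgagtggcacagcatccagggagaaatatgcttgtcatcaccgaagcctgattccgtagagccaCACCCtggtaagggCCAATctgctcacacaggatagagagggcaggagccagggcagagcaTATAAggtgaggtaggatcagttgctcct
Hbb-bt: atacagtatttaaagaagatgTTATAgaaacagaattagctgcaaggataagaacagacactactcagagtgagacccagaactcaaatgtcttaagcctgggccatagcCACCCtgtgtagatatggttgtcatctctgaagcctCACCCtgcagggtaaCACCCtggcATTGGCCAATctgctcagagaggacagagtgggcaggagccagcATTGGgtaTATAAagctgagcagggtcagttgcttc
Alas2: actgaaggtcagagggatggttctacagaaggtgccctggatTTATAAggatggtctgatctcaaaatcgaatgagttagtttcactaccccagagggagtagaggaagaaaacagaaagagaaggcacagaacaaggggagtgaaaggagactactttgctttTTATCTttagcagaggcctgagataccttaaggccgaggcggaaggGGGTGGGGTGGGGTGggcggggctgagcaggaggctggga
The search covered 300-base windows, and all matches fell before the start site. Hba-a1 and Hbb-bs each hold a GATA match, at -183 and -210, a CCAAT match, at -88 and -76, and TATAA at -27 and -29. Hbb-bt holds 3 CACCC and 3 CCAAT matches and none of the GATA letters, and Alas2 holds 3 CACCC matches side by side on the minus strand and a GATA match at -86. In Alas2 the TATAA matches of both strands, at -208 and -207, overlap each other, and no other matches overlap. Positions are counted from the start site to the first base of a match. Of 32851 promoter windows of the same length, 29.8% hold a GATA match, 57.5% CACCC, 37.4% CCAAT and 24.9% TATAA. A match says nothing of binding in these livers.

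Genes outside the 6 were ranked by how closely they followed the mean profile of the 6. Among those nearest by Pearson's r over 15 libraries were Creld1 (0.909), 3110082I17Rik (0.886), Srgap3 (0.871), Cmtm6 (0.868), Ubxn1 (0.866) and Anp32b (0.865). Within diets those nearest included Tspyl4 (0.846), Evc (0.811), Map4k1 (0.797), Bglap3 (0.783), Gm38312 (0.776), Cacnb3 (0.772) and Gm43681 (0.765), and no gene named here was among the nearest by both measures. The order rests in part on HFD replicate 11. Without it the r of the 6 genes named over all libraries was 0.842 (Cmtm6) to 0.889 (Creld1), at ranks 44 to 141 among all genes. Within diets r was 0.762 for Tspyl4 and 0.508 (Bglap3) to 0.674 (Evc) for the other 6, at ranks 18 to 485. The likeness within diets is thus not stable to that library.

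**Figure D4:**
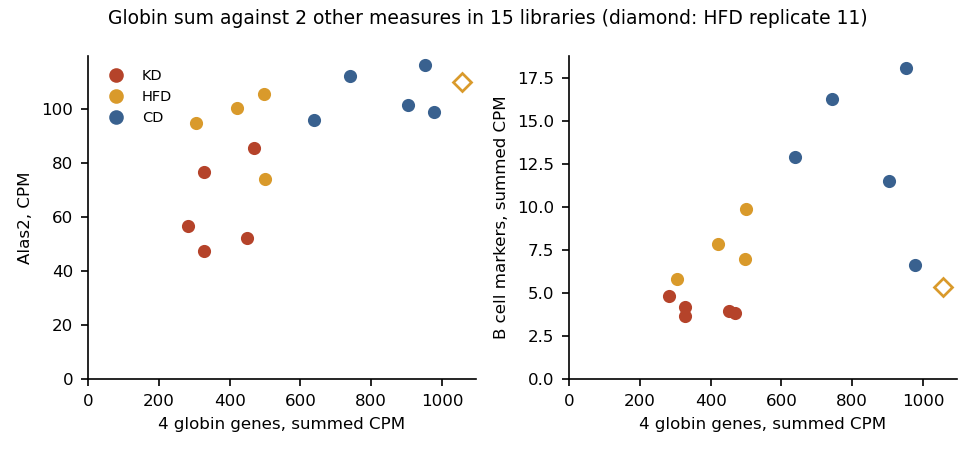
Summed CPM of the 4 globins (x axis) against Alas2 and summed B cell marker CPM (y axes) in 15 libraries, coloured by diet, with HFD replicate 11 as an open diamond. HFD replicate 11 has the highest globin sum, 1057 CPM, and the lowest B cell sum of its diet, 5.33 CPM.

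Other genes known for their part in red cells did not follow the 6 as a group. Of 49 on the list, 48 were matched and 23 tested. In KD against CD, 4 rose, 5 fell and 14 did not pass, with a median log2 fold change of 0.03, beside -0.01 over all genes. Of all genes tested, 30.8% were called in either direction and 14.6% lower. The membrane skeleton gene Epb41 (protein 4.1) rose by 0.53 ± 0.08 (adjusted p = 3.065e-05), standing at 124 ± 12.1 CPM in KD and 85.9 ± 2.1 CPM in CD (SD, n = 5 each, edgeR). Gypc (glycophorin C), which binds protein 4.1 at the membrane, rose by 0.84 ± 0.12 (adjusted p = 4.188e-05). Bnip3l, which clears mitochondria from maturing red cells, rose by 0.17 ± 0.05, and Car2, a carbonic anhydrase, by 0.48 ± 0.16. Many of these genes are also active in liver and other cells. Among those that fell were Tspan33, a tetraspanin of erythroid progenitors, by 0.51 ± 0.09 in log2 units, Slc25a37, the mitochondrial iron carrier, by 0.35 ± 0.08, Steap3, a ferrireductase, by 0.26 ± 0.09, and Nfe2, an erythroid and megakaryocyte transcription factor, by 1.88 ± 0.43. Nfe2 stood at only 0.145 ± 0.104 CPM in KD and 0.570 ± 0.234 CPM in CD. The calls of Car2 and Steap3 were lost in 6 and 8 of 23 alternatives, at adjusted p up to 0.0891 and 0.143.

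In HFD against CD, 2 of the 23 rose and 3 fell, with a median of -0.07 beside 0.01 over all genes. Of all genes tested, 15.6% were called in either direction and 7.32% lower. The number called, 5, was 3 without HFD replicate 11, CD replicate 18 or CD replicate 19 and 2 without CD replicate 15. Epb41 rose by 0.30 ± 0.08, a call lost with total-count scaling (adjusted p = 0.0546, edgeR), and Klf1, the erythroid factor that binds CACCC sequences, by 0.80 ± 0.24 (adjusted p = 0.0325). Blvrb, which reduces biliverdin, fell by 0.79 ± 0.12, Slc25a37 by 0.31 ± 0.08 and Nfe2 by 1.26 ± 0.41. The Klf1 call was lost without HFD replicate 10 or 11, or CD replicate 15, 16 or 19, at adjusted p up to 0.0909. The Nfe2 call was lost in 11 of 22 alternatives, at adjusted p up to 0.107, and that of Slc25a37 without HFD replicate 11 or 14, or CD replicate 15 or 18, at up to 0.0581. In KD against HFD, 5 rose and 2 fell, with a median of 0.07 beside -0.02. Of all genes tested, 26.1% were called in either direction and 13% lower. Gypc rose by 1.05 ± 0.12, Car2 by 0.91 ± 0.17, Blvrb by 0.56 ± 0.12 and Bnip3l by 0.18 ± 0.05, while Tspan33 fell by 0.43 ± 0.09 and Car1 by 0.54 ± 0.15. The fifth, Epb41, rose by 0.23 ± 0.08, a call lost in 7 of 23 alternatives.

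**Figure D5:**
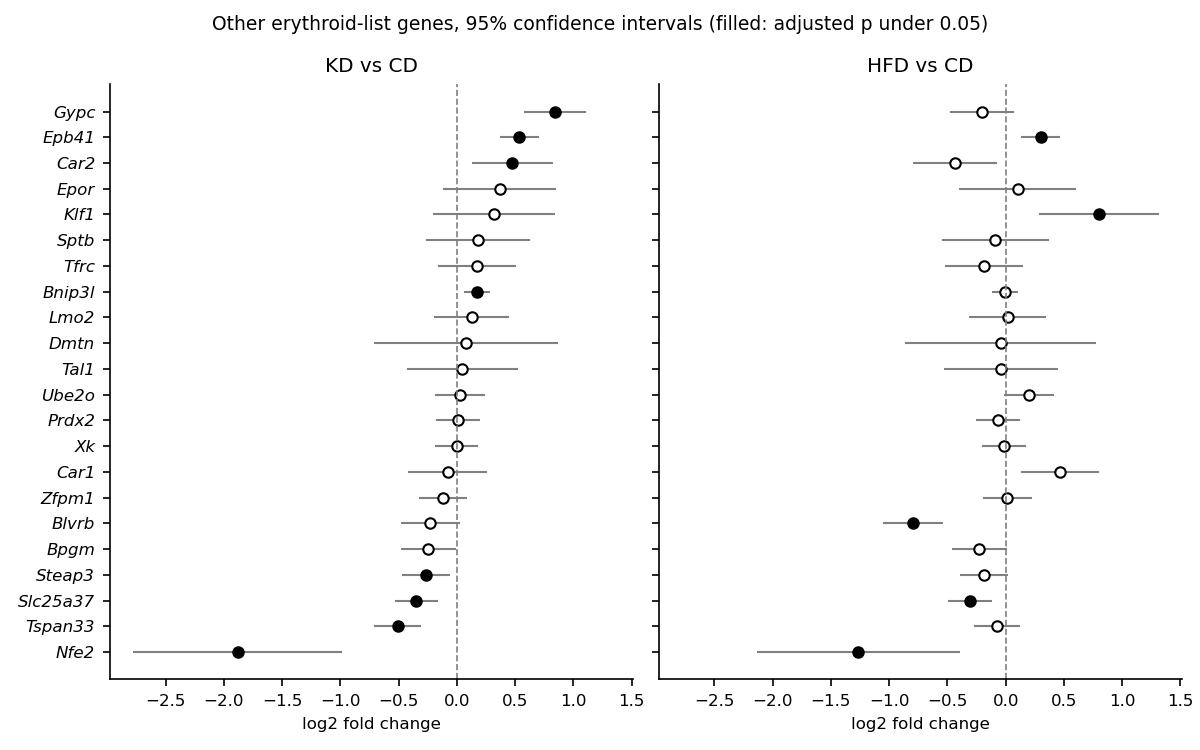
Log2 fold changes of other erythroid genes tested, with 95% confidence intervals, for KD against CD and HFD against CD, filled where the adjusted p is under 0.05. In KD against CD the genes spread to both sides of 0, with Gypc at 0.84 and Nfe2 at -1.88.

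The genes most specific to red cell precursors were near the limit of detection. Of the other globin genes, Hba-x and Hbb-y, which serve the embryo, and Hbb-bh2 had 0 reads in all 15 libraries. Hbb-bh1 had 1 read in all libraries together. The erythroid membrane gene Cldn13 also had 0 reads. A count of 0 allows up to 3 reads, or 0.0591 to 0.0998 CPM, per library. The master regulator Gata1 had 2 reads in all libraries together, and Gfi1b, its partner repressor, 2. Of the skeleton and surface genes, Rhag (Rh-associated glycoprotein) had 14 reads in all and Epb42 (protein 4.2) 74.5 estimated reads, too few for the test. In HFD replicate 11 the reads of Trim10, a RING finger gene of erythroid cells, numbered 15, against at most 6 in any other library. Trim58, a ubiquitin ligase of maturing red cells, had 3 reads there, against at most 2. Most of the 25 erythroid genes with too few reads for the test had no such excess there. Rhag had 0 reads there, against at most 7 in any other library, and Icam4 6, against at most 15. These reads are not scaled for depth, and that library had the most reads of its diet. Among the 23 tested genes that library was the highest of the HFD group for 6, or 26.1%, beside 19.1% of all genes.

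Of the rest of haem synthesis, 12 genes were tested. In KD against CD, 4 rose and 2 fell, with a median of 0.12. Beside these, 30.8% of all genes tested were called in either direction and 14.6% lower. Cpox (coproporphyrinogen oxidase) rose by 0.87 ± 0.08, at 294 ± 32.8 CPM in KD and 161 ± 14.5 CPM in CD (SD, n = 5 each, edgeR adjusted p = 1.698e-07). Uros (uroporphyrinogen III synthase) rose by 0.28 ± 0.06 and Fech (ferrochelatase) by 0.21 ± 0.05. Ppox, the step between Cpox and Fech, fell by 0.66 ± 0.06 (adjusted p = 2.364e-07), and Abcb10, a mitochondrial transporter, by 0.22 ± 0.07. The Abcb10 call was lost in 10 of 23 alternatives, at adjusted p up to 0.0808 by edgeR. Alas1, the liver counterpart of Alas2, rose by 1.81 ± 0.62 (adjusted p = 0.0425), standing at 1270, 1020, 813, 569 and 773 CPM in KD, and at 364, 447, 125, 57.6 and 272 CPM in CD. Every KD library lies above every CD library, the opposite order to Alas2, and the Alas1 call was lost in 10 of 23 alternatives at adjusted p up to 0.0876. HFD replicate 11 was the highest HFD library for Alas1 too, at 643 CPM against 91.0 to 362 CPM in the others. In HFD against CD, 1 of the 12 rose, the mitochondrial glycine carrier Slc25a38 by 0.34 ± 0.07. In that comparison 2 fell, Ppox by 0.29 ± 0.06 and Alad by 0.29 ± 0.09. The Alad call was lost in 5 of 23 alternatives, at adjusted p up to 0.0965 by edgeR. In KD against HFD 5 of the 12 rose and 1, Ppox, fell by 0.37 ± 0.06. The share called over all genes, in either direction, was 15.6% in HFD against CD and 26.1% in KD against HFD.

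Of 9 genes that bind or break down haemoglobin and haem, 4 rose in KD against CD and none fell, with a median of 0.10. Of the 13967 genes tested, 30.8% were called in either direction in that comparison. They were 2258 genes called higher and 2038 called lower, the latter 14.6% of those tested. Hp (haptoglobin), which binds free haemoglobin, rose by 0.66 ± 0.08 to 2529 ± 265 CPM in KD, against 1604 ± 151 CPM in CD. Hpx (hemopexin), which binds free haem, rose by 0.55 ± 0.12 to 2483 ± 454 CPM in KD, against 1699 ± 136 CPM in CD. Cd163, the macrophage receptor for haptoglobin bound to haemoglobin, rose by 0.65 ± 0.13, and Hmox2, a haem oxygenase, by 0.24 ± 0.06. The adjusted p of these 4 was 0.00836 or less by edgeR. In HFD against CD, 2 of the 9 rose, Hp by 0.34 ± 0.08 and Lrp1, a receptor for hemopexin bound to haem, by 0.41 ± 0.10. The lysosomal haem carrier Slc48a1 fell by 0.22 ± 0.07, a call lost in 13 of 23 alternatives. In KD against HFD 5 rose and 1 fell. The share called over all genes, in either direction, was 15.6% in HFD against CD and 26.1% in KD against HFD.

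Markers of other blood cells were read in the same libraries. The 10 B cell markers summed to 3.68 to 4.86 CPM in KD, 5.33 to 9.90 CPM in HFD and 6.65 to 18.1 CPM in CD, so that KD and CD do not overlap. Of 8 tested, 7 fell in KD against CD, with a median of -1.62, among them Igkc by 1.64 ± 0.25 and Ighd by 1.71 ± 0.30 (adjusted p 0.0002449 or less, edgeR). The call of Ms4a1, another of the 7, was lost in 16 of 22 alternatives. For this and the lists below, 30.8% of all genes tested were called in KD against CD and 14.6% called lower. The 11 platelet markers summed to 5.69 to 6.88 CPM in KD, 4.26 to 6.60 CPM in HFD and 5.33 to 6.34 CPM in CD. Of 4 tested, Itgb3 rose by 0.55 ± 0.14 and Itga2b fell by 0.43 ± 0.16 in KD against CD, and the Itga2b call was lost in 11 of 23 alternatives. The 13 neutrophil markers summed to 1.73 to 3.25 CPM in KD, 1.52 to 2.37 CPM in HFD and 1.83 to 2.68 CPM in CD. Of the 3 neutrophil genes tested, edgeR called 0 in KD against CD, with 0 at an unadjusted p under 0.05, and DESeq2 called 0. The 5 blood monocyte markers summed to 4.57 to 7.60 CPM in KD and 3.67 to 4.71 CPM in CD, with Plac8 higher by 0.47 ± 0.17, a call lost in 8 of 23 alternatives. Of 10 T and NK cell genes, Cd4 fell by 0.90 ± 0.23 and Cd3d by 0.69 ± 0.21, the Cd3d call being lost without CD replicate 16 or CD replicate 19 (adjusted p up to 0.0518).

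The measures of blood cells thus differ in how they go with the globins. B cell markers were lowest in KD as the globins were, while platelet, neutrophil, monocyte, and T and NK cell sums of KD and CD overlap. On average the monocyte sum was higher in KD than in CD (5.91 and 4.26 CPM) and the T and NK cell sum lower (4.30 and 5.44 CPM). In HFD replicate 11, where the globin sum was 1057 CPM, the B cell sum of 5.33 and the neutrophil sum of 1.52 CPM were the lowest of the HFD group. The platelet sum of 5.98, the monocyte sum of 3.79 and the T and NK cell sum of 6.28 CPM lay within the range of that group. The amount of blood left in each liver was not measured, and its part in the globin differences was not tested.

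Of resident liver cells, edgeR called 0 of 10 Kupffer cell markers in KD against CD, with 1 at an unadjusted p under 0.05 and 1 called by DESeq2. Their sums were 151 to 230 CPM in KD and 153 to 191 CPM in CD. Stellate cell markers had 4 of 8 higher, with Hgf up by 0.90 ± 0.19, Colec11 by 0.36 ± 0.09 and Rgs5 by 0.46 ± 0.13. Over all genes tested, 30.8% were called in either direction in KD against CD. Of 10 endothelial markers, Oit3 rose by 0.49 ± 0.16, a call lost in 6 of 23 alternatives. Of 5 bile duct markers edgeR called 0, with 2 at an unadjusted p under 0.05 and 1 called by DESeq2. Of 7 hepatocyte markers, Apob rose by 0.41 ± 0.07 and Ttr fell by 0.45 ± 0.08 and Apoc3 by 0.30 ± 0.09. The part of these markers in the globin differences was not tested.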

How the data were processed

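Total RNA from liver was extracted with Trizol and sequenced, per the labels' protocols. The submitters' processing notes name Trimmomatic 0.36, kallisto 0.44, edgeR 3.28 and build GRCm38.p6, with no settings. The authors deposited, per the file headers, an estimated count, an effective length and TPM for each of 106332 transcripts. Identifiers were matched to GENCODE M21 (105734 transcripts, 25731 genes), and 598 were unmatched and not used (0.184 to 0.223% of a library's reads). Estimated counts were summed per gene and rounded, genes were filtered with filterByExpr (minimum count 10, total 15), and edgeR 4.0.16 fitted all 15 libraries with TMM and a robust quasi-likelihood test. TPM was summed per gene for levels across genes. The code was tested on simulated data. Chi-square tests of 30 pairs of same-diet libraries gave 18.5 to 113.43 per degree of freedom, so no libraries were merged, and the common biological coefficient of variation came to 0.1306. The spread between livers, more than depth, limits precision, except for Slc4a1 and other genes of few reads, where counting error does.

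The 6 genes and all gene lists were chosen with earlier results of these data known. Named genes are the 6, up to 6 other erythroid genes per comparison and up to 3 per other list (KD against CD) with the smallest adjusted p, markers at 0, and the 8 most alike by Pearson's r to the mean z-scored log2 CPM (prior count 2). Other genes named, those of few reads included, were picked once values had been seen. Ahsp was not matched and is not analysed here. Some genes that these rules name are not reported here, though counts include them. Log2 fold changes are given with standard errors from the F statistic. Alternatives were RLE factors, total-count scaling, DESeq2 1.42.0, no filter, a filter of 1 CPM in 5 libraries, fits of only the diets compared, effective length offsets, Mup genes left out, copies summed, and each library left out. Levels, ratios, summed copies and the most alike genes without HFD replicate 11 were added after seeing the data. Other software was R 4.3.3, limma 3.58.1, Python 3.11.15, pandas 2.3.3, scipy 1.17.1, numpy 2.4.6 and matplotlib 3.10.9.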

Additional observations from a re-analysis of the deposited data

Results flagged for a closer look

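In 2 of 36 sets of 5 libraries checked, 1 library lay far from the other 4, by the share of the range that its gap to the nearest takes up (above 0.71). Hba-a1 stood at 338.0 CPM in HFD replicate 11, with a gap of 0.756 of the range, and Hbb-bt at 143.9 CPM in the same library, with a gap of 0.761. Chance gives such a gap in about 1 in 20 sets, and the globins are read together, so these are not separate events. Their cause was not tested.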

How the results depend on the processing

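Of 652 comparisons of the main answers with an alternative, 644 stayed within the tolerance set, 8 moved and no called direction turned round. A fold change of the 6 genes counted as kept where it moved by less than its spread within diets, whatever its sign or call. So the sign change of Slc4a1 in HFD against CD counted as kept. The same holds for the fold changes of the 4 genes called in HFD against CD without HFD replicate 11. Of 2809 comparisons for single genes and secondary values, 2513 were kept, 123 values moved and 173 calls were lost, and no called direction turned. The count of the 6 genes called in KD against HFD was 1 with a filter of 1 CPM in 5 libraries and 1 with only those diets fitted, since Slc4a1 then did not pass the filter. With each library left out, that count was 2 to 3, the count in HFD against CD 0 to 4 and that of other erythroid genes in HFD against CD 2 to 6. The beta to alpha globin ratio in KD was 0.8715 in TPM. With total-count scaling, 68.5% of the calls in KD against CD were higher, beside 52.6% with TMM, and 70.6% of those in KD against HFD, beside 50.1%; the cause was not tested. The 6 genes kept their direction in KD against CD under every scaling. No paired analysis was possible because no replicate number recurs between the diets. Depth limits Slc4a1 most, with 137 reads in all.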

Other observations

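Reads of a short Alas2 transcript that keeps an intron numbered 8.94 to 20.8 in the KD libraries. In HFD they numbered 38.4 in replicate 11 and 16.6 to 20.5 in the other 4, and in CD 39.2 to 43.8 in replicates 16, 17 and 18 and 15.8 and 16.3 in replicates 15 and 19.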
